A study of Mus musculus with 6 samples.

Results

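The keratin gene family was followed in whole mouse dorsal skin on day 2 of treatment with DPCP (diphencyprone), a contact sensitizer painted on skin to provoke an allergic reaction. Members were the protein-coding genes whose symbol is Krt followed by a number and at most 1 letter, which left out keratin-associated proteins and other similarly named genes. The deposited table held 53 such genes among 55487 genes, with 27 on chromosome 11 and 26 on chromosome 15. A further row with a keratin name, Krt74, is annotated as a unitary pseudogene and was left out. All 6 libraries came from DPCP-treated skin. In 3 of them the mice also received clodrosome, liposomes carrying clodronate, which kills the phagocytes that swallow them, and in the other 3 they received encapsome, the same kind of liposome without the drug. The labels write the treatments as DPCP+Codrosome and DPCP+Encapsome. Strain, age and sex of the mice, the route of the liposomes and whether each library is 1 animal are not given in the sources used here, so p-values measure the spread between these libraries. No skin without DPCP is among these samples, so nothing here measures the effect of DPCP itself.

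Keratins are the intermediate filament proteins of epithelial cells, and a filament forms only from pairs of an acidic type I and a basic type II keratin. The genes of each type lie together in a cluster, type I on mouse chromosome 11 and type II, with the type I gene Krt18, on chromosome 15. Basal epidermal cells make Krt5 and Krt14, cells that leave the basal layer switch to Krt1 and Krt10, and wounded or inflamed epidermis turns on Krt6a, Krt6b, Krt16 and Krt17. Hair follicles use further sets, one in the inner root sheath and one in the hair shaft, which are made while hair grows, and simple epithelia and Merkel cells use Krt8, Krt18, Krt19 and Krt20.

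Total counts were 116965654 in clodrosome library A and between 26649396 and 35566351 in the other 5 libraries. The letters name table columns within a group and pair nothing between groups. Levels are given as CPM, which sets the TMM-adjusted library totals equal, and a count of 0 allows a level of up to 0.0502 CPM in clodrosome library A and 0.166 to 0.228 CPM in the others (3 fragments, taken as 6 counts, counting error only). Macrophage genes, the target of the treatment, had a summed level of 1690.4 to 2599 CPM with clodrosome and 6136 to 6810.4 CPM with encapsome. All 8 genes of that list were lower by the edgeR test, beside 13.0% of all genes tested. The share of counts in rRNA genes parted the libraries in a way that crosses the groups, with clodrosome A, clodrosome C and encapsome A at 0.355%, 0.334% and 0.481% and the other 3 between 0.788% and 0.845%. Each of these sets holds 1 library of one of the groups, and with the set as a second term in the edgeR fit, an alternative added after seeing the data, the 11 keratins called below were called again.

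Keratin RNA was concentrated in few genes. The 53 genes together took 4.4%, 4.3% and 4.55% of all counts in clodrosome libraries A, B and C, and 3.68%, 3.07% and 3.21% in encapsome libraries A, B and C, so every clodrosome library lay above every encapsome library. To compare genes with each other, counts were divided by the exonic length that no other gene shares and scaled to the same total in every library (TPM), with the limit that this length includes exons that skin may use little. On that scale the order in encapsome skin began with Krt14 at 18424 ± 2274 TPM, Krt6a at 7441 ± 710.2 TPM and Krt17 at 5915 ± 521 TPM (SD, n = 3 each). Krt16 at 4948 ± 529 TPM, Krt5 at 4833 ± 721 TPM and Krt6b at 4701 ± 867 TPM followed and lay within their SD of each other. The suprabasal pair stood far below, with Krt1 at 215 ± 50.7 TPM and Krt10 at 108 ± 4.84 TPM in encapsome skin (SD, n = 3 each). In clodrosome skin the order was Krt14 at 23876 ± 554 TPM, Krt6a at 10132 ± 872 TPM, Krt17 at 9636 ± 1525 TPM and Krt5 at 7883 ± 1205 TPM, ahead of Krt16 at 6635 ± 549 TPM and Krt6b at 4878 ± 159 TPM. Krt5 thus stood level with Krt16 and Krt6b with encapsome. With clodrosome its mean was ahead of both, although Krt5 and Krt16 still overlapped within their SD.

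**Figure D1:**
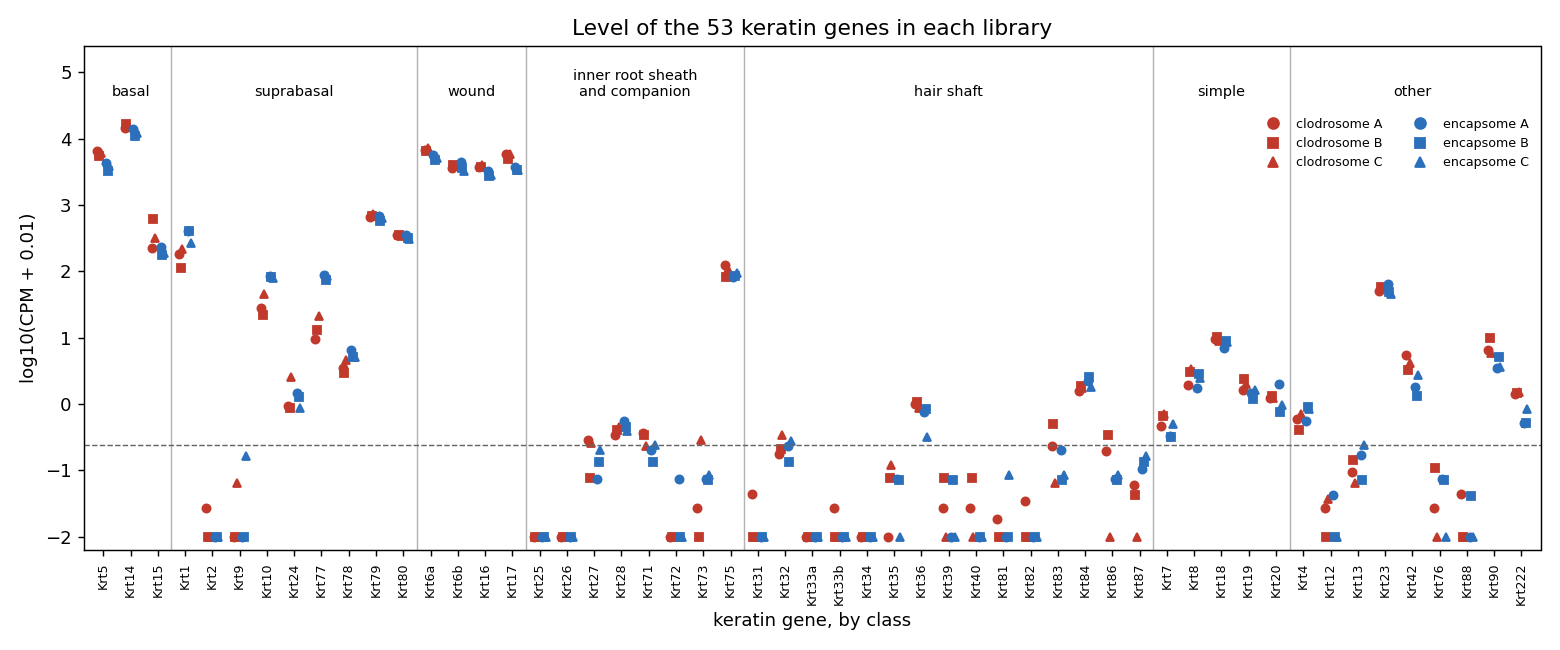
Level of each keratin gene in the 6 libraries, as log10 of CPM + 0.01 on the vertical axis and genes grouped by class on the horizontal axis. Points are libraries (red clodrosome, blue encapsome; circle A, square B, triangle C), points at -2 have a count of 0, and the dashed line is the highest level that a count of 0 allows in any library, 0.228 CPM. Basal and wound keratins fill the top, and most inner root sheath and hair shaft keratins sit at or near 0.

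Clodrosome skin had less RNA of Krt1, Krt10 and Krt77, keratins of the upper epidermal layers, than encapsome skin, and more of the basal keratins Krt5 and Krt15, the wound keratins Krt6a, Krt16 and Krt17, and Krt42, Krt90 and Krt222. Of the 53 genes, 28 passed the low-count filter and were tested with the edgeR quasi-likelihood test among 17988 genes, and 25 did not pass, none of which exceeded 0.493 CPM in any library. At an adjusted p under 0.05, 8 of the 28 tested keratins were higher in clodrosome skin (28.6%, against 9.41% of all genes tested) and 3 were lower (10.7%, against 13.0%), beside 22.4% of all genes called in either direction. The median log2 fold change of the tested keratins was 0.22, beside 0.01 over all genes tested. Groups did not overlap for 13 of the 28 (40.2% of all genes tested), 9 with clodrosome above (19.5%) and 4 with clodrosome below (20.7%). With libraries scaled by 20 genes of epithelial junctions in place of all genes, 4 keratins were higher (against 1.70% of all genes tested) and 7 lower (against 39.8%). Krt6a, Krt16, Krt15 and Krt90 were then no longer called. Whole-skin RNA cannot tell fewer cells of a type from less RNA per cell. The number of higher keratins depended on the libraries used, with 5, 5, 3 and 4 called without clodrosome C, encapsome A, encapsome B and encapsome C. Higher genes over all genes tested fell in these same fits, from 1692 to 933, 1122, 821 and 938. The 3 lower keratins were called whichever library was left out. Krt1, Krt10, Krt77, Krt5 and Krt17 kept their call under every alternative tried.

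The keratins that fell were all of the suprabasal layers. Krt77, a type II keratin related to Krt1 (chromosome 15, 101858731 to 101869705, GRCm38), measured 9.56, 13.2 and 21.5 CPM in clodrosome libraries A, B and C and 89.2, 73.9 and 85.8 CPM in encapsome libraries A, B and C. Every clodrosome library was far below every encapsome library. Its log2 fold change was -2.51 with an SE of 0.249 (adjusted p = 0.000229, edgeR), a 5.7-fold lower level. Krt10, the type I keratin of differentiating epidermis (chromosome 11, 99385254 to 99389364), measured 28.2, 22.1 and 45.7 CPM in clodrosome libraries A, B and C and 84, 82.6 and 79.3 CPM in encapsome libraries A, B and C. Encapsome libraries were nearly equal, and clodrosome libraries were all lower and spread more widely, with B the lowest and C the highest. The log2 fold change was -1.36 with an SE of 0.215 (adjusted p = 0.00226, edgeR), a 2.56-fold lower level. Krt1, the type II partner of Krt10 (chromosome 15, 101845426 to 101850794), measured 181, 112 and 218 CPM in clodrosome libraries A, B and C and 412, 413 and 270.4 CPM in encapsome libraries A, B and C. The groups again did not overlap, with encapsome C the closest to the clodrosome libraries. It fell 2.14-fold, with a log2 fold change of -1.10 with an SE of 0.236 (adjusted p = 0.00994, edgeR).

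The other keratins of the upper layers were not called with scaling by all genes. Krt78 and Krt80 were called lower with epithelial scaling, as were 39.8% of all genes tested. Krt79, a type II keratin of the upper follicle and sebaceous duct, and Krt80, a type II keratin of differentiated cells, averaged 701 ± 35 CPM with clodrosome against 632 ± 52.4 CPM with encapsome (SD, n = 3 each) and 348 ± 6.7 CPM with clodrosome against 333 ± 24.6 CPM with encapsome (SD, n = 3 each). Their log2 fold changes were 0.15 ± 0.0895 and 0.067 ± 0.0795 (SE; 0.271 and 0.595 as edgeR adjusted p), and the groups overlapped. Krt78, a type II keratin of late differentiation, measured 3.49, 2.89 and 4.67 CPM with clodrosome and 6.42, 5.13 and 5.06 CPM with encapsome, with every clodrosome library lower. Its log2 fold change of -0.59 ± 0.201 did not pass (SE; 0.064 as edgeR adjusted p), although it did without clodrosome C (0.0337), with the rRNA sets as a term (0.0174) and by DESeq2 (0.0322). Krt24 lay between 0.855 and 2.52 CPM with overlapping groups. Krt9, the keratin of palms and soles, and Krt2, a keratin of the uppermost living layers, did not pass the filter, with highest levels of 0.152 and 0.0167 CPM. Summed over its 9 members this class reached 1244, 1198 and 1373 CPM with clodrosome and 1634, 1475 and 1396 CPM with encapsome, and the clodrosome libraries were all below the encapsome ones, by a narrow margin for clodrosome C and encapsome C. Most of that sum is Krt79 and Krt80, which hides the size of the falls of Krt1, Krt10 and Krt77.

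Among the basal keratins Krt5 rose, and Krt14 pointed the same way without passing the test. Krt5 (chromosome 15, 101707070 to 101712898) measured 6612, 5465 and 6087 CPM in clodrosome libraries A, B and C and 4362, 3315 and 3839.6 CPM in encapsome libraries A, B and C. The lowest clodrosome library was above the highest encapsome library, and the log2 fold change was 0.66 with an SE of 0.126 (adjusted p = 0.00588, edgeR), a 1.58-fold higher level. Krt14, the type I partner of Krt5 and the most abundant keratin of the family (chromosome 11, 100203162 to 100207548), measured 14762, 16534 and 15750.4 CPM in clodrosome libraries A, B and C and 13893, 11203 and 12224 CPM in encapsome libraries A, B and C. The groups did not overlap, but clodrosome A and encapsome A were close. The log2 fold change of 0.33 with an SE of 0.117 (adjusted p = 0.0693, edgeR) missed the threshold, which an adjusted p by DESeq2 (0.00589) and upper-quartile scaling in edgeR (0.0493) passed. Krt15, a keratin of basal cells and of the stem cells of the follicle bulge (chromosome 11, 100131758 to 100135928), measured 229, 617 and 318 CPM in clodrosome libraries A, B and C and 234, 178 and 190.4 CPM in encapsome libraries A, B and C. Clodrosome B stood far above all other libraries, and clodrosome A lay inside the encapsome range. It passed narrowly, with a log2 fold change of 0.95 with an SE of 0.301 (adjusted p = 0.0495, edgeR). Without clodrosome B the log2 fold change was 0.45 (edgeR adjusted p = 0.0586), and the call was also lost without clodrosome C (0.0596), encapsome A (0.0746), encapsome B (0.16) or encapsome C (0.137) and by DESeq2 (0.108).

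Of the 4 wound keratins 3 were higher in clodrosome skin, beside 9.41% of all genes tested, and Krt6b was not. Krt6b was called lower with epithelial scaling, which moved the median of all genes by -0.32 on the log2 scale and called 39.8% of them lower. Krt17, a type I keratin of activated epidermis and the outer root sheath (chromosome 11, 100256217 to 100261029), measured 5822, 4890.1 and 5937 CPM in clodrosome libraries A, B and C and 3813, 3328 and 3433 CPM in encapsome libraries A, B and C. The groups were well apart, with a log2 fold change of 0.65 with an SE of 0.111 (adjusted p = 0.0032, edgeR), a 1.57-fold higher level. Krt6a, a type II keratin of wound and follicle (chromosome 15, 101689910 to 101694307), measured 6768, 6652 and 7165 CPM in clodrosome libraries A, B and C and 5644, 4801 and 5147 CPM in encapsome libraries A, B and C, with all clodrosome libraries higher. Its log2 fold change was 0.40 with an SE of 0.101 (adjusted p = 0.0204, edgeR). Krt16, the type I partner of the Krt6 keratins (chromosome 11, 100246091 to 100248902), measured 3812, 3765 and 4029 CPM in clodrosome libraries A, B and C and 3279.9, 2761 and 2882 CPM in encapsome libraries A, B and C, also without overlap. Its log2 fold change was 0.38 with an SE of 0.0991 (adjusted p = 0.0239, edgeR), close to that of Krt6a. The calls of Krt6a and Krt16 were lost without clodrosome C (edgeR adjusted p = 0.0727 and 0.0839), encapsome B (0.0998 and 0.11) or encapsome C (0.0866 and 0.104). Krt6b, the neighbour and close copy of Krt6a (chromosome 15, 101676023 to 101680287), measured 3601, 4017 and 3895 CPM in clodrosome libraries A, B and C and 4499, 3640.1 and 3259 CPM in encapsome libraries A, B and C. Encapsome A was the highest and encapsome C the lowest of the 6, and the log2 fold change was 0.014 with an SE of 0.127 (adjusted p = 0.95, edgeR).

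Part of the sequence of these genes cannot be counted without doubt. Of the 150-base windows of its longest transcript, 30.2% in Krt6a occur exactly in another gene, among them Krt6b, and 18.8% in Krt6b occur in Krt6a. Krt16 shares 18.4% of its windows with Gm11597, while Krt17, Krt5, Krt14, Krt1, Krt10 and Krt77 share 0. In addition 24.8% of the exonic bases of Krt6a are covered by exons of Gm44342 and Gm49428, where reads were left out. The share covered by other genes was 6.91% for Krt10, 5.87% for Krt5, 5.77% for Krt6b and 5.45% for Krt90. It was 0 for Krt1, Krt14, Krt16, Krt17 and Krt77. The levels of Krt6a, Krt6b and Krt16 are therefore uncertain.

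**Figure D2:**
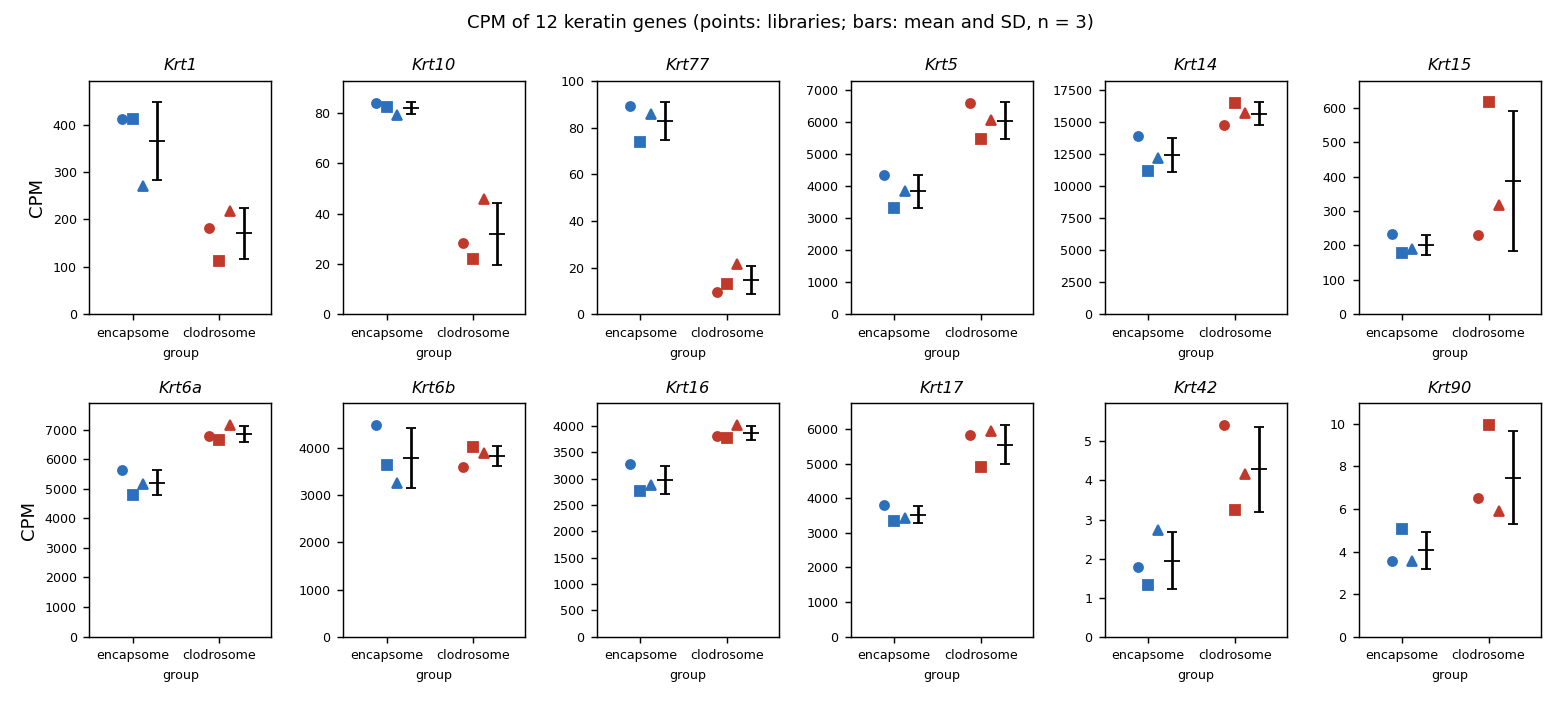
CPM of 12 keratin genes on linear axes that start at 0, with encapsome libraries in blue and clodrosome libraries in red (circle A, square B, triangle C) and the mean with SD (n = 3) beside them. Krt1, Krt10 and Krt77 are lower in all 3 clodrosome libraries, Krt5, Krt14, Krt6a, Krt16, Krt17, Krt42 and Krt90 are higher in all 3, and Krt6b and Krt15 overlap.

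Promoters of 36 of the 53 keratins were in the RefSeq table for GRCm38.p6. The 250 bases before the start are shown for a pair of genes that fell, Krt10 and Krt77, and a pair that rose, Krt5 and Krt42, because these opposite movers can be read side by side. Capitals mark TATAAA, the TATA box, and CACCC, a site read by KLF factors, on either strand.
Krt10 (chr11:99389365-99389614, minus strand, GRCm38.p6): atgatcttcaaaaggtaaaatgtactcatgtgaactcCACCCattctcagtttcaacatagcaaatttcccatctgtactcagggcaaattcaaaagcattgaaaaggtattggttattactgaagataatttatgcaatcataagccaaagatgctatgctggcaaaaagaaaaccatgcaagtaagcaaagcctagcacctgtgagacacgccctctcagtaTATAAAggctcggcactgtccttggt
Krt77 (chr15:101869706-101869955, minus strand, GRCm38.p6): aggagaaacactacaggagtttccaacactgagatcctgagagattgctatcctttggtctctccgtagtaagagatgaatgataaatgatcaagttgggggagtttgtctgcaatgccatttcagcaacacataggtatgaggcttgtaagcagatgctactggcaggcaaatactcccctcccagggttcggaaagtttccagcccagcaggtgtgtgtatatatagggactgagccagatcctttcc
Krt5 (chr15:101712906-101713155, minus strand, GRCm38.p6): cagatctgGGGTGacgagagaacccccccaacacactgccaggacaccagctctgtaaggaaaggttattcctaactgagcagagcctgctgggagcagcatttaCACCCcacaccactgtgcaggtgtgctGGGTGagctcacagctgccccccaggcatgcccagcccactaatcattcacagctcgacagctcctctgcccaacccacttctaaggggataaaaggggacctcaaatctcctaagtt
Krt42 (chr11:100269952-100270201, minus strand, GRCm38.p6): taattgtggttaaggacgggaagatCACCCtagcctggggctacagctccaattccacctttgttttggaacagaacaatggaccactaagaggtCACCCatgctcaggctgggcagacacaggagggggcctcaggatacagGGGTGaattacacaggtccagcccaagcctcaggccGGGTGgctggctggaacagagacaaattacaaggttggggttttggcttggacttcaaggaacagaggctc
Krt10 holds TATAAA 26 bases before the start, and the other 3 windows do not hold these 6 letters. CACCC occurs 1 time in Krt10, 3 times in Krt5, 4 times in Krt42 and 0 times in Krt77. Beyond these chosen genes it occurs 2 times in Krt90, called higher, and 6 times in Krt79 and 1 time in Krt14, not called. Whether the number of sites goes with the direction of change was not tested. Over the family, TATAAA lay 20 to 40 bases before the start on the gene strand in 13 of 36 genes (36.1%), beside 2.18% of the 32851 windows of the whole table. CACCC was found in 28 of 36 (77.8%) beside 52%, TGANTCA, the AP-1 site, in 1 (2.78%) beside 6.75%, TTGCNNAAT, a C/EBP site, in 1 (2.78%) beside 2.11%, and TTCNNNGAA, the STAT site, in 4 (11.1%) beside 7.02%, each searched on both strands. A match describes letters in this window and shows no binding.

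Most keratins of the growing follicle were at or near 0 in both groups. Of 15 hair shaft keratins 13 did not pass the filter, Krt33a and Krt34 had 0 counts in all 6 libraries, and the highest value among the 13 was 0.493 CPM, for Krt83 in clodrosome B. The main shaft pair of the hair cortex, Krt31 and Krt86, reached at most 0.0335 and 0.329 CPM. The shaft keratins that passed the filter were Krt36, at 0.996, 1.05 and 0.857 CPM with clodrosome and 0.743, 0.845 and 0.305 CPM with encapsome, and Krt84, at 1.54, 1.84 and 1.74 CPM with clodrosome and 2.23, 2.54 and 1.83 CPM with encapsome. Krt36 was higher in every clodrosome library, and the groups of Krt84 overlapped. Neither was called, with log2 fold changes of 0.60 ± 0.365 and -0.38 ± 0.213 (SE; 0.281 and 0.241 as edgeR adjusted p). Krt84 was called lower with epithelial scaling, as were 39.8% of all genes tested. In the inner root sheath Krt25 and Krt26 had 0 counts in every library, and Krt27, Krt71, Krt72 and Krt73 peaked at 0.276, 0.36, 0.0646 and 0.276 CPM. Krt28 passed the filter at 0.326 to 0.549 CPM and was not called. Keratin-associated proteins, the matrix of the hair shaft, showed the same state, since 48 of 58 such genes had 0 counts in all libraries and none exceeded 0.129 CPM. Of 13 tested genes of a list of the growing hair matrix 1, Hoxc13, was higher and 1, Selenbp1, was lower, beside 9.41% and 13.0% of all genes tested. The list median log2 fold change was 0.14. The summed level of all 16 was 58.9 to 65.1 CPM with clodrosome and 65.7 to 77 CPM with encapsome, but without Selenbp1, at 14.2 ± 1.97 CPM with clodrosome against 28 ± 4.16 CPM with encapsome (SD, n = 3 each), it was 49.9, 46.9 and 49.4 CPM with clodrosome and 44.3, 45.6 and 40.9 CPM with encapsome, so the direction of the sum turns on that gene. Shh, a signal of the growing hair matrix, averaged 0.115 ± 0.0537 CPM with clodrosome against 0.0639 ± 0.0646 CPM with encapsome (SD, n = 3 each). A difference between groups in the keratins at or near 0 was not detectable at this depth.

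Krt75, a type II keratin of the companion layer between the root sheaths, was the exception among the inner root sheath, companion and hair shaft keratins. It measured 126, 81.4 and 109 CPM in clodrosome libraries A, B and C and 81.3, 86 and 93.4 CPM in encapsome libraries A, B and C, so clodrosome A and C were above all encapsome libraries and clodrosome B was among them. The log2 fold change of 0.28 with an SE of 0.141 (adjusted p = 0.184, edgeR) did not pass, and without clodrosome B it was 0.44 (edgeR adjusted p = 0.00954) and without clodrosome A 0.13 (0.518).

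Keratins of simple epithelia and Merkel cells were low and none of the 5 was called. Krt18 measured 9.5, 10.2 and 8.79 CPM with clodrosome and 7.04, 8.83 and 8.49 CPM with encapsome, and its type II partner Krt8 1.92, 2.99 and 3.4 CPM with clodrosome and 1.74, 2.82 and 2.47 CPM with encapsome. Krt19, also a keratin of the bulge, averaged 2.0 ± 0.393 CPM with clodrosome against 1.44 ± 0.227 CPM with encapsome (SD, n = 3 each). Krt20, a Merkel cell keratin, and Krt7 stayed at or below 2.0 and 0.691 CPM. The 5 log2 fold changes ran from 0.011 to 0.65, all above 0, although Krt8, Krt18 and Krt20 were below 0 with epithelial scaling, with edgeR adjusted p-values from 0.212 to 0.987. Of the Merkel cell list, which holds Krt20, 4 of 6 genes were tested and 0 were called by edgeR, its sum was 5.56 to 6.55 CPM with clodrosome and 4.03 to 4.91 CPM with encapsome, and Atoh1 averaged 0.0494 ± 0.0716 CPM with clodrosome against 0.0215 ± 0.0373 CPM with encapsome (SD, n = 3 each).

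Of the remaining 9 keratins 3 rose, all at low levels. Krt42, a type I gene next to Krt17 (chromosome 11, 100262882 to 100269871), measured 5.43, 3.26 and 4.18 CPM in clodrosome libraries A, B and C and 1.78, 1.31 and 2.74 CPM in encapsome libraries A, B and C, with a log2 fold change of 1.17 with an SE of 0.289 (adjusted p = 0.0187, edgeR). Krt90, a type II gene, measured 6.54, 9.97 and 5.89 CPM in clodrosome libraries A, B and C and 3.55, 5.07 and 3.58 CPM in encapsome libraries A, B and C, with a log2 fold change of 0.86 with an SE of 0.231 (adjusted p = 0.0265, edgeR). Krt222, a short keratin-like gene, measured 1.43, 1.48 and 1.49 CPM in clodrosome libraries A, B and C and 0.517, 0.501 and 0.837 CPM in encapsome libraries A, B and C, with a log2 fold change of 1.26 with an SE of 0.283 (adjusted p = 0.0124, edgeR). In each of the 3 every clodrosome library was above every encapsome library. The call of Krt42 was lost without clodrosome A (edgeR adjusted p = 0.068), encapsome A (0.0601) or encapsome B (0.0691), that of Krt90 without clodrosome B (0.0502), encapsome A (0.0854) or encapsome C (0.0934), and that of Krt222 without encapsome B (0.0547). Krt23 was the most abundant of this group, averaged 54.7 ± 3.75 CPM with clodrosome against 53 ± 9.31 CPM with encapsome (SD, n = 3 each) and was not called. Krt4 lay between 0.395 and 0.908 CPM and was not called, and Krt12, Krt13, Krt76 and Krt88 did not pass the filter. Some of the called keratins are neighbours in their cluster, with Krt16, Krt17 and Krt42, all higher, next to each other on chromosome 11, and Krt6a and Krt5, both higher, and Krt1 and Krt77, both lower, adjacent on chromosome 15. Other neighbours differed, since Krt6b, beside Krt6a, and Krt75, beside Krt90, were not called with scaling by all genes. Whether position goes with direction was not tested.

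Ratios between keratins of a pair or class are given for each library as a description. They were taken from TPM, which cancels library scaling, and were not tested, and an exact permutation test of 3 against 3 libraries could not give a p below 0.1. Krt5 to Krt14 stood at 0.381, 0.281 and 0.329 with clodrosome and 0.267, 0.252 and 0.267 with encapsome, higher in every clodrosome library. Krt6a to Krt16 was nearly constant at 1.53, 1.52 and 1.53 with clodrosome and 1.48, 1.5 and 1.54 with encapsome. Krt16 to Krt17 was lower in every clodrosome library, at 0.649, 0.763 and 0.673 with clodrosome and 0.853, 0.822 and 0.832 with encapsome. The ratio of the copies, Krt6b to Krt6a, was 0.459, 0.521 and 0.469 with clodrosome and 0.688, 0.655 and 0.547 with encapsome, lower in every clodrosome library.

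In the upper layers Krt1 to Krt10 was 2.86, 2.26 and 2.13 with clodrosome and 2.19, 2.23 and 1.52 with encapsome, and these groups overlapped. Krt77 to Krt10 was 0.228, 0.401 and 0.316 with clodrosome and 0.713, 0.601 and 0.727 with encapsome, lower in every clodrosome library. Krt10 to Krt14, a differentiated to a basal keratin of the same type, was 3.24-fold higher in encapsome skin, at 0.00171, 0.00119 and 0.00259 with clodrosome and 0.0054, 0.00659 and 0.0058 with encapsome. The type II match, Krt1 to Krt5, was 3.46-fold higher in encapsome skin, at 0.0128, 0.00959 and 0.0168 with clodrosome and 0.0443, 0.0583 and 0.033 with encapsome. For both of these ratios the groups did not overlap. Summed over the family, type II to type I TPM lay between 0.551 and 0.604 with clodrosome and between 0.585 and 0.608 with encapsome, and the groups overlapped.

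**Figure D3:**
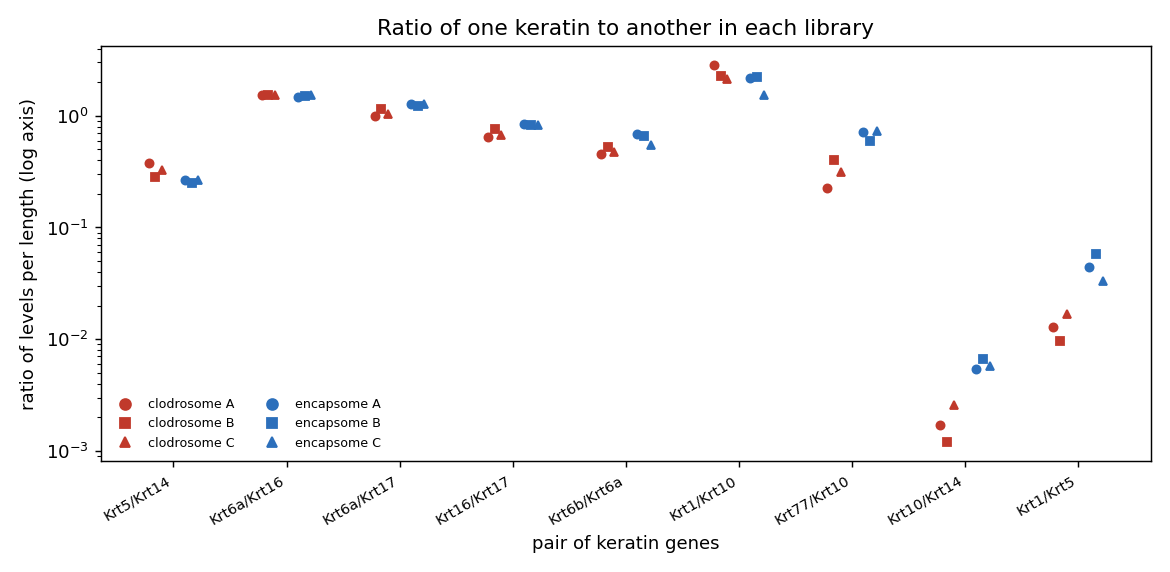
Ratios of the level per length (TPM) of one keratin gene to another in each library, on a log axis, with clodrosome libraries in red and encapsome libraries in blue (circle A, square B, triangle C). Krt6a to Krt16 is alike in all 6 libraries, and Krt10 to Krt14 and Krt1 to Krt5 are lower in all 3 clodrosome libraries.

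Other epithelial genes were also higher in clodrosome skin. A list of 20 genes of epithelial junctions and identity without keratins, among them Cdh1, the cadherin of epithelial cells, and Perp, a desmosome protein, had 13 higher and 0 lower members by the edgeR test, with a median log2 fold change of 0.36, and 7 to 11 were higher when 1 library was left out. Their summed level was 5381 to 5927 CPM with clodrosome and 4216 to 4728 CPM with encapsome. Over the same libraries 7 of 8 fibroblast genes were lower, with a summed level of 2293 to 4367 CPM with clodrosome and 8174 to 9646 CPM with encapsome, and 5 of 8 skeletal muscle genes were higher, at 3916 to 5029 CPM with clodrosome and 2667 to 3089 CPM with encapsome. Sebocyte genes, of the gland that opens into the follicle, summed to 929 to 990.1 CPM with clodrosome and 1412 to 1736 CPM with encapsome, with 1 of 6 lower. That fall is Scd1, a fatty acid desaturase, at 742 ± 34.4 CPM with clodrosome against 1378 ± 169 CPM with encapsome (SD, n = 3 each), since without it the sums overlapped at 212, 276 and 191 CPM with clodrosome and 204, 151 and 165 CPM with encapsome and the median log2 fold change over all 6 genes was 0.21. Melanocyte genes summed to 35 to 42.6 CPM with clodrosome and 24 to 33.2 CPM with encapsome, with 1 of 6 higher. The adipocyte and neutrophil lists overlapped between groups in their sums, with 2 of 6 lower and 2 of 7 higher. Beside these counts, 9.41% of all genes tested were higher and 13.0% lower by the edgeR test. No gene of these lists was at 0 in all libraries. The part of these cell types in the keratin differences was not tested. The epithelial list gives a reading per count of its 20 genes, taken here as per epithelial RNA. One limit is that some of its genes, such as Itgb4 and Cdh3, belong to basal cells. Another is that abundant genes weigh most in the sum. Perp alone averaged 2719 ± 249 CPM with clodrosome against 2156 ± 118 CPM with encapsome (SD, n = 3 each). It was itself called higher, a call lost without clodrosome C or any 1 encapsome library. Keratin counts per count of that list were 8.0, 7.31 and 8.06 with clodrosome and 7.94, 7.32 and 7.19 with encapsome, and the groups overlapped. Basal keratins gave 4.01, 3.82 and 3.99 with clodrosome and 3.91, 3.49 and 3.59 with encapsome, and wound keratins 3.72, 3.26 and 3.78 with clodrosome and 3.65, 3.45 and 3.25 with encapsome, both overlapping. Suprabasal keratins gave 0.231, 0.202 and 0.247 with clodrosome and 0.346, 0.35 and 0.308 with encapsome, with every clodrosome library lower.

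With libraries scaled by that epithelial list, the median of all genes tested moved by -0.32 on the log2 scale, and 4 keratins were higher and 7 lower in clodrosome skin (1.70% and 39.8% of all genes). Krt5 and Krt17 remained higher per epithelial RNA, with log2 fold changes of 0.34 and 0.34 (edgeR adjusted p = 0.0389 and 0.0376), as did Krt42 and Krt222 at 0.86 and 0.94 (0.032 and 0.0276). Krt6a and Krt16 were at 0.081 and 0.060 (edgeR adjusted p = 0.53 and 0.652), and Krt14 at 0.013 (0.925). Krt15 and Krt90 also lost their call, at 0.61 and 0.52 (0.0657 and 0.0858). The falls were larger on this scale, with Krt77 at -2.83, Krt10 at -1.67 and Krt1 at -1.41 (edgeR adjusted p = 7.60e-06, 0.000138 and 0.000829). Krt78, Krt84, Krt6b and Krt80 were called lower, at -0.90, -0.70, -0.31 and -0.26 (0.00539, 0.0314, 0.0482 and 0.0484).

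**Figure D4:**
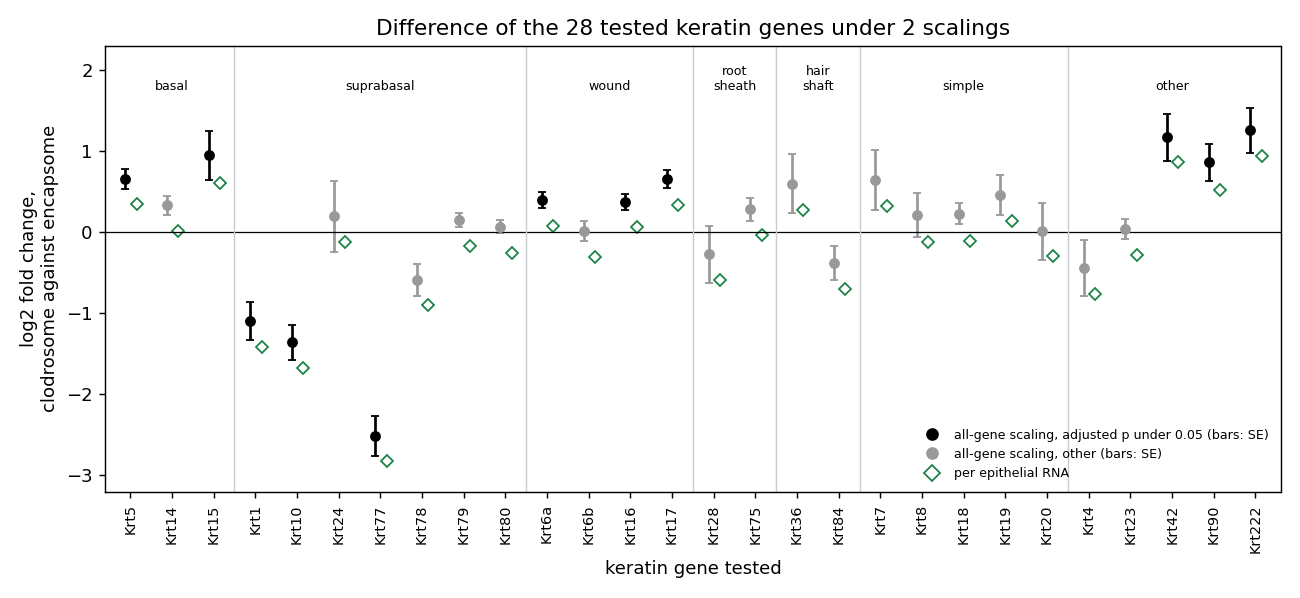
Log2 fold change of each tested keratin gene, clodrosome against encapsome, by class. Circles with SE bars use scaling by all genes (black where the edgeR adjusted p is under 0.05, grey otherwise) and open diamonds use scaling by the 20 epithelial genes. All diamonds sit below their circles, by about the -0.32 that this scaling moves the median of all genes, and Krt1, Krt10 and Krt77 stay the lowest.

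Genes that control or bind keratins were read from lists of 23 regulators and 20 partners. Of the 23 regulators, all tested, 6 were higher and 1 lower by the edgeR test, beside 9.41% and 13.0% of all genes tested. When 1 library was left out, 3 to 7 were higher and 0 to 1 lower. The median log2 fold change of the list was 0.14, beside 0.36 for the epithelial list. Values with epithelial scaling are not given for regulators or partners, so a rise apart from that of epithelial RNA was not tested. Trp63, the transcription factor of basal epidermal cells that drives Krt5 and Krt14, measured 396, 388 and 398 CPM in clodrosome libraries A, B and C and 276, 271 and 273 CPM in encapsome libraries A, B and C. These libraries were tight within each group, and the log2 fold change was 0.53 with an SE of 0.0687 (adjusted p = 0.000839, edgeR). Grhl1 and Grhl3, factors of epidermal barrier genes, rose by 0.43 and 0.45 on the log2 scale and Hes1, a Notch target, by 0.47, at adjusted p-values of 0.00427, 0.012 and 0.00721 by edgeR. The call of Grhl3 was lost without encapsome B or C (edgeR adjusted p up to 0.0563). Hoxc13, the regulator of hair shaft keratins, was low at 6.69, 5.85 and 6.39 CPM with clodrosome and 3.84, 4.76 and 3.5 CPM with encapsome, with a difference of 0.65 with an SE of 0.158 (adjusted p = 0.018, edgeR) that was lost without clodrosome A, clodrosome C, encapsome A or encapsome C (up to 0.0695). The remaining higher regulator was Zfp750, at 0.57 with an SE of 0.131 (adjusted p = 0.0133, edgeR). Its call was lost without encapsome B or C (up to 0.0595). The lower gene was Cebpa, a factor of keratinocyte differentiation, at -0.35 with an SE of 0.0967 (adjusted p = 0.0296, edgeR). That call was lost on leaving out each library except clodrosome B (up to 0.0929).

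Of the 19 partners tested 6 were higher and 4 lower, beside 9.41% and 13.0% of all genes tested. When 1 library was left out, 1 to 7 were higher and 3 to 4 lower. The list median log2 fold change was 0.24. Pkp3, which links keratin filaments to desmosomes, was the higher one with the smallest p, at 0.43 with an SE of 0.0847 (adjusted p = 0.00683, edgeR). The lower ones were the filaggrin family genes Flg, Flg2 and Hrnr, whose products bundle keratin in the upper layers, and Tgm3, an enzyme that crosslinks them. Flg measured 26.8, 14.1 and 41.3 CPM in clodrosome libraries A, B and C and 121, 90.2 and 64.6 CPM in encapsome libraries A, B and C, with no overlap, and a log2 fold change of -1.74 with an SE of 0.34 (adjusted p = 0.00634, edgeR). Hrnr, Flg2 and Tgm3 changed by -1.66, -0.97 and -1.15 on the log2 scale, with adjusted p-values of 0.0092, 0.00751 and 0.032 by edgeR. The call of Tgm3 was lost without clodrosome C, encapsome A or encapsome B (edgeR adjusted p up to 0.109).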

How the data were processed

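The authors deposited one table of unnormalized counts, in which featureCounts 1.6.2 assigned reads to genes of the Ensembl release 102 GRCm38 annotation, per the file headers. The header's command sets no option for pairs, strand, multiply mapped or overlapping reads, and 63.6% to 69.7% of counts from 1 to 20 were even, so each end of a pair was probably counted. Trimmomatic 0.36, HISAT2 2.2.1, StringTie 2.2.1, DESeq2 1.34.0 and mm10 are named in the submitters' processing notes. Libraries were stranded and made from mRNA, with reads of 150 bases, per the labels' protocols. Columns were matched to groups by name, and symbols were found for 99.4% of identifiers. Replicates differed beyond sampling noise. Genes were tested with edgeR 4.0.16 in R 4.3.3 (TMM, filterByExpr with minimum count 10 and total 15, quasi-likelihood test, Benjamini-Hochberg over 17988 genes, threshold 0.05). In counts simulated for this comparison over 17746 genes, 56.7% of 1.5-fold and 98.5% of 2-fold changes were called. The simulation gave every gene the same spread, a biological coefficient of variation of 0.1255. It placed changes only in genes averaging at least 1 CPM, so these shares do not cover lower or more variable genes. The members and lists were chosen with earlier results of these data known. Keratins that passed the filter could be named, and up to 4 genes of each other list by smallest p; genes named beyond that were chosen after their values were seen. Alternatives were DESeq2 1.42.0, other scalings and filters, and leaving out each library, with a term for rRNA share added after seeing the data.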

Additional observations from a re-analysis of the deposited data

How the results depend on the processing

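No paired analysis was possible because the count columns do not carry the replicate numbers of the sample titles. Of the 11 keratin calls, 11 were kept with DESeq2 size factors, upper-quartile scaling, no low-count filter, a minimum mean of 1 CPM and the rRNA term, 10 by DESeq2 and 7 with epithelial scaling. The count of 8 higher keratins became 4 with epithelial scaling, where 1.70% of all genes tested were higher, and ran from 3 to 7 when 1 library was left out. The count of 3 lower ones became 7 with epithelial scaling, where 39.8% of all genes tested were lower, and ran from 3 to 4 when 1 library was left out. Over all genes tested 1692 were higher with all libraries, and 821 to 1964 when 1 library was left out. On the log2 scale the summed basal, suprabasal, wound and simple keratins moved from 0.43, -0.24, 0.38 and 0.25 to 0.11, -0.56, 0.056 and -0.070 with epithelial scaling. Leaving out 1 library gave 0.35 to 0.52 for basal, -0.30 to -0.18 for suprabasal, 0.34 to 0.46 for wound, 0.19 to 0.32 for simple keratins. Within the low rRNA set, with 1 encapsome library, basal and wound keratins were at 0.24 and 0.25. Over all 6 libraries the log2 differences in Krt5 to Krt14 and Krt10 to Krt14 were 0.32 and -1.76. Within the high rRNA set, with 1 clodrosome library, they were 0.12 and -2.37. In the low rRNA set Krt5 to Krt14 was 0.381 and 0.329 in clodrosome A and C and 0.267 in encapsome A. Krt10 to Krt14 was 0.00171 and 0.00259 in clodrosome A and C and 0.0054 in encapsome A. The cause was not tested. Single genes that turned direction were, with epithelial scaling, Krt18 at -0.10, Krt20 at -0.29, Krt23 at -0.28, Krt24 at -0.12, Krt6b at -0.31, Krt75 at -0.033, Krt79 at -0.17, Krt8 at -0.12 and Krt80 at -0.26, and with the rRNA term, Krt20 at -0.11, Krt24 at -0.074 and Krt6b at -0.022, and without clodrosome B, Krt20 at -0.016 and Krt6b at -0.015, and without clodrosome C, Krt24 at -0.45 and Krt6b at -0.0009, and without encapsome B, Krt20 at -0.26, Krt23 at -0.0093 and Krt6b at -0.016; and without encapsome C, Krt20 at -0.14, Krt23 at -0.048 and Krt6b at -0.085. Leaving out 1 library moved Krt20 between -0.26 and 0.56, Krt23 between -0.048 and 0.19, Krt24 between -0.45 and 0.48, Krt6b between -0.085 and 0.15. With no low-count filter edgeR gave far smaller adjusted p-values, as for Krt10 (1.07e-40 against 0.00226), and added Krt14, Krt75 and Krt78 to the calls; the cause was not tested. Of the genes that turned direction, Krt6b and Krt80 with epithelial scaling passed the test. Keratins at or near 0 cannot be compared at this depth, and arms of 3 libraries limit the precision of every value.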
